A study of Mus musculus with 10 samples.

Results

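Schwann cells and their myelin were followed in the mouse aorta through 9 genes: Mbp, Pmp22, Prx and Mag of the myelin sheath, the transcription factor gene Sox10, the receptor genes Erbb3 and Ngfr, the glial cadherin gene Cdh19 and the calcium-binding protein gene S100b. All probe sets that the platform annotation assigns to one of these symbols were taken, which gave 21 probe sets for 8 of the 9 genes, out of 18193 genes with a probe set of their own. The expression of Prx was not analysed here, since the platform annotation used gives it no probe set. The values come from total RNA of the aorta of male C57BL/6 mice on 1-colour Affymetrix arrays. The knockout mice (Ptgds-/-, 5 arrays, replicates 1 to 5) lack lipocalin-type prostaglandin D synthase (L-PGDS), and the wild type mice (4 arrays, replicates 1, 3, 4 and 5) carry the gene; wild type replicate 2 was excluded by the submitters. The labels give neither age, nor litter, nor the stretch of aorta taken, nor whether the surrounding fat and nerves were removed.

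Schwann cells are the glia of peripheral nerves. Myelinating Schwann cells wrap single large axons in a sheath whose proteins include myelin basic protein (Mbp), peripheral myelin protein 22 (Pmp22) and myelin-associated glycoprotein (Mag), while non-myelinating Schwann cells hold bundles of thin axons, such as the sympathetic fibres that reach the outer layer of arteries. SOX10 is required for the glial lineage of peripheral nerves and drives genes of the myelin programme together with EGR2. Axons signal to Schwann cells through neuregulin 1, which binds ERBB3.

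The start regions of Mag, Ngfr and S100b are shown because these genes differ in how often they correlated with other members over the arrays. Ngfr passed in 4 of 7 pairs, Mag in 2 and S100b in 0. Without wild type replicate 3, no pair of any of these genes passed. Each covers 250 bases before to 50 bases after a RefSeq start (GRCm38.p6), the first listed where a gene has several: Mag at chr7:30914814-30915113, minus strand, Ngfr at chr11:95587649-95587948, minus strand, and S100b at chr10:76253586-76253885, plus strand. Capitals mark matches to the SOX core motif, searched as ACAAAG or ACAATG on both strands (CTTTGT or CATTGT on the opposite strand).
Mag: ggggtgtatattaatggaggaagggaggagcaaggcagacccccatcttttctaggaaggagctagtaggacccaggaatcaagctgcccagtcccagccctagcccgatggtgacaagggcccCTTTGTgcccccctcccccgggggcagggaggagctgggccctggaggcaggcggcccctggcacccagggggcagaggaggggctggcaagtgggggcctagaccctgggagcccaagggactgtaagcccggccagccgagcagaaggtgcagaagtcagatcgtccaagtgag
Ngfr: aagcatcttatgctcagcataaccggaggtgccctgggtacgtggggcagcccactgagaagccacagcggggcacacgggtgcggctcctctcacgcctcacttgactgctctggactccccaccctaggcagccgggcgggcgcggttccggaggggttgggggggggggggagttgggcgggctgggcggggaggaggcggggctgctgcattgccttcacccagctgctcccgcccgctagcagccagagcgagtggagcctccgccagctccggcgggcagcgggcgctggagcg
S100b: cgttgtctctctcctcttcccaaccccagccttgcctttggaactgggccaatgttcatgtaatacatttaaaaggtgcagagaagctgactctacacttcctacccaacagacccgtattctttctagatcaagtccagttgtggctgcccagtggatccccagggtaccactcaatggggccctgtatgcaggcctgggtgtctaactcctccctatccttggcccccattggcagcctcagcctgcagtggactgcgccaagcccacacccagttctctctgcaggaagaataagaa
The Mag region holds 1 match, CTTTGT at position -126 from the start, and the Ngfr and S100b regions hold 0. Over the 10 listed start regions of Mag, Ngfr, Pmp22, Prx and S100b, 2 hold a match, both at overlapping starts of Mag. Start regions of Mbp, Sox10, Erbb3 and Cdh19 were not analysed here. The motif occurs in 28.6% of all 32851 regions of this length in the table, which is the background for these counts. The letters GCGTGGGCG, a motif of EGR factors, occur in 0.612% of all regions on either strand and in 0 of the same 10. A match is a description of the letters and not a bound site.

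Before the results, the arrays themselves need a word. Median log2 values were 5.88 to 5.95 on the knockout arrays and 5.91 to 5.97 on the wild type arrays, and each array's mean correlation with the other 8 was between 0.984 and 0.987 for all arrays but wild type replicate 3, where it was 0.969. Ptgds, the targeted gene, lay between 3.67 and 4.40 in the knockout and between 8.68 and 10.31 in wild type aortas (change −5.30, adjusted p 0.00059, limma), as labelled for all 9 arrays. Sympathetic neuron genes separate the arrays more than any of the other marker lists here: the mean log2 value of 15 such genes was 9.45, 5.27, 6.06, 6.48 and 5.45 on knockout replicates 1 to 5, and 6.27, 11.10, 8.06 and 5.26 on wild type replicates 1, 3, 4 and 5. Wild type replicate 3 and knockout replicate 1 thus stand well above the rest, so results that rest on them are also given without them. In RNA of whole tissue, fewer cells of a type and less RNA per cell cannot be told apart.

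None of the 8 Schwann cell and myelin genes with a probe set passed the adjusted threshold for a difference between knockout and wild type aortas. All 8 genes with a probe set passed the filter for low values (a log2 value over 4 on at least 4 arrays) and were tested with 14321 genes in limma. Of these 8, 0 passed an adjusted p of 0.05, against 0.0559% of all tested genes. At an unadjusted p under 0.05 there were also 0, against 19.9% of all tested genes, and the groups overlapped for all 8, while they did not overlap for 6.76% of all tested genes. The log2 change was positive for 2 members and negative for 6, and its median was −0.17 against 0.027 over all tested genes. That median was 0.12 without wild type replicate 3 and 0.047 with the sympathetic neuron markers as a covariate, so its direction depended on these settings. Without wild type replicate 3, 7 members were higher and 1 lower, and without that array and knockout replicate 1 there were 4 each way.

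For 7 of the 8 members, all but S100b, the standard deviation within the genotypes exceeded the change between them. Mbp, which compacts the cytoplasmic faces of the myelin membrane, had log2 values of 11.19, 8.79, 10.31, 11.40 and 10.46 on knockout replicates 1 to 5, and 10.40, 11.97, 10.31 and 8.96 on wild type replicates 1, 3, 4 and 5 (probe set 1433532_a_at). Each genotype holds an array that is high and one that is low in Mbp relative to the others, and the ranges nearly coincide. The highest and the lowest array lie 9.01-fold apart, while the 5 knockout aortas averaged 10.43 ± 1.03 and the 4 wild type aortas 10.41 ± 1.23 (mean ± SD). The change was 0.02 (SE 0.66, 95% interval −1.47 to 1.51, adjusted p 0.99, limma), so the data allow a fall or a rise of more than 1 on the log2 scale. The standard deviation of Mbp within the genotypes ranks at the 98.9th percentile of all tested genes.

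**Figure D1:**
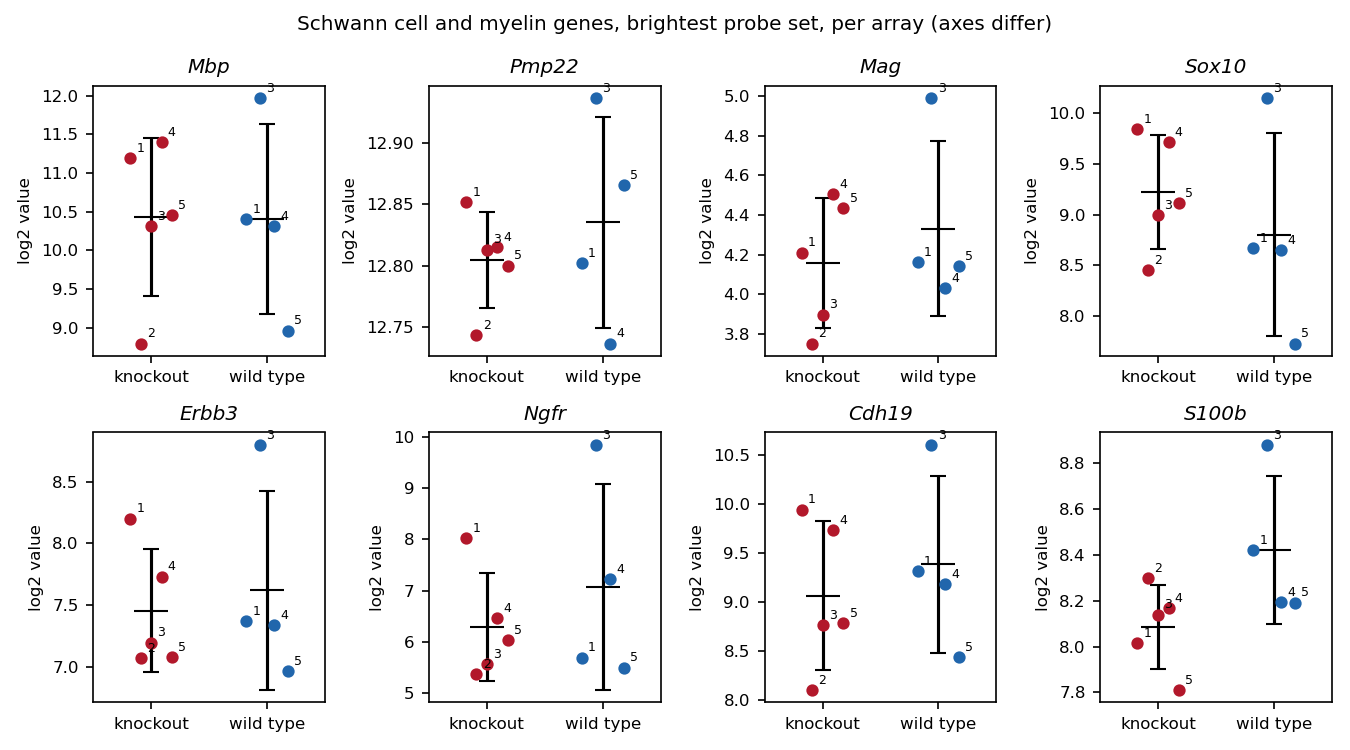
Log2 values of the brightest probe set of each of the 8 genes (y axes differ in range) on the 5 knockout arrays (left, red) and 4 wild type arrays (right, blue); numbers are replicates, bars are the mean and SD. Wild type replicate 3 is the highest array in all 8 panels, and the groups overlap in each.

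The 8 probe sets of Mbp did not all behave alike. Besides 1433532_a_at, 4 others (1419646_a_at, 1436201_x_at, 1454651_x_at and 1456228_x_at) spanned 2.98 to 3.30 over the arrays, with changes of −0.084 to 0.058. Probe set 1425264_s_at spanned only 0.94: it lay at 7.95, 7.84, 7.68, 7.67 and 7.56 in the knockout and at 8.12, 8.50, 7.79 and 8.01 in wild type, a change of −0.36 (SE 0.14). Its unadjusted p was 0.028 and its adjusted p 0.22 over all 26504 tested probe sets (limma), and it did not share the high value of knockout replicate 4. Probe set 1451961_a_at spanned 0.86 at a level of 4.50 to 5.36, and 1425263_a_at was over 4 on 0 arrays. The annotation does not say which Mbp transcripts each probe set reads. Over all members, 17 of the 21 probe sets were tested and 0 passed, against 0.0792% of all tested probe sets.

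Pmp22, a membrane protein of compact myelin that many other cell types also make, was the steadiest of the group. Its values were 12.85, 12.74, 12.81, 12.82 and 12.80 in the knockout and 12.80, 12.94, 12.74 and 12.87 in wild type. The whole range over the arrays is 0.20, and the standard deviation within genotypes ranks at the 7.8th percentile of all tested genes. The change was −0.03 (SE 0.06, 95% interval −0.16 to 0.096, adjusted p 0.79, limma). This is the one member for which the interval holds no change over 0.2 on the log2 scale.

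Mag, an adhesion molecule on the inner face of the sheath next to the axon, was measured close to the floor of 4. It had 4.21, 3.75, 3.90, 4.50 and 4.44 in the knockout and 4.16, 4.99, 4.03 and 4.14 in wild type, and was over the floor on 7 of 9 arrays. Its highest value was on wild type replicate 3. The change was −0.17 (SE 0.23, 95% interval −0.69 to 0.34, adjusted p 0.70, limma), and 0.047 without wild type replicate 3.

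Sox10 is the only member besides Mbp with a positive change. Its brightest probe set had 9.84, 8.46, 8.99, 9.71 and 9.12 in the knockout and 8.67, 10.14, 8.65 and 7.73 in wild type. Of the wild type arrays, replicate 3 lay above all knockout arrays, while replicate 5 lay below them all. The change was 0.42 (SE 0.46, 95% interval −0.62 to 1.46, adjusted p 0.63, limma). It stood at 0.067 without wild type replicate 5, 0.87 without wild type replicate 3 and 0.79 with the sympathetic neuron markers as a covariate, with adjusted p-values of 0.95, 0.30 and 0.22. The other probe sets of Sox10, 1424985_a_at and 1425369_a_at, stood at 0.15 (SE 0.26) and 0.056 (SE 0.10).

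Both receptor genes, like Sox10 and Cdh19, ranked 1 on wild type replicate 3 and 2 on knockout replicate 1, the arrays with most neuronal transcript. On wild type replicate 4, the next in neuronal transcript, Ngfr ranked 3 and Erbb3 5. Erbb3 had 8.20, 7.07, 7.20, 7.73 and 7.08 in the knockout and 7.37, 8.80, 7.34 and 6.97 in wild type, a change of −0.16 (SE 0.38, adjusted p 0.84, limma). Ngfr, the low-affinity neurotrophin receptor p75 of Schwann cells and of sympathetic and sensory neurons, had 8.03, 5.36, 5.56, 6.46 and 6.03 in the knockout and 5.69, 9.85, 7.23 and 5.49 in wild type. Its range of 4.49, or 22.5-fold, is the widest of the members, and its change was −0.78 (SE 0.91, 95% interval −2.83 to 1.28, adjusted p 0.66, limma). Both changed sign without wild type replicate 3, to 0.23 for Erbb3 and 0.15 for Ngfr, while without that array and knockout replicate 1 they were 0.042 and −0.28. With the sympathetic neuron markers as a covariate they were 0.16 and 0.027. Of the other Ngfr probe sets, 1450177_at was over the floor only in wild type replicate 3, at 5.07, and 1421241_at on 0 arrays.

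Cdh19, a cadherin of Schwann cells and their precursors, had 9.94, 8.10, 8.77, 9.73 and 8.79 in the knockout and 9.31, 10.60, 9.19 and 8.44 in wild type. The order of the arrays is close to that of Mbp, with wild type replicate 3 and knockout replicates 1 and 4 on top and knockout replicate 2 at the bottom. The change was −0.32 (SE 0.49, adjusted p 0.74, limma), 0.087 without wild type replicate 3, and −0.13 without that array and knockout replicate 1.

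S100b, which Schwann cells, adipocytes and other cell types make, had the smallest p of the 8 brightest probe sets. It had 8.02, 8.30, 8.14, 8.17 and 7.81 in the knockout and 8.42, 8.88, 8.19 and 8.19 in wild type (probe set 1434342_at). Of the 5 knockout arrays 4 lay below every wild type array, while the knockout array of replicate 2, at 8.30, was inside that range. The 5 knockout aortas averaged 8.09 ± 0.18 and the 4 wild type aortas 8.42 ± 0.32 (mean ± SD), a change of −0.34 (SE 0.16, 95% interval −0.69 to 0.016). The unadjusted p was 0.059 and the adjusted p 0.27 (limma), and without wild type replicate 3 the change was −0.18 (adjusted p 0.47), where Sox10 had the smaller adjusted p. The other probe set, 1419383_at, stood at −0.26 (SE 0.22, adjusted p 0.55 over all tested probe sets).

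**Figure D2:**
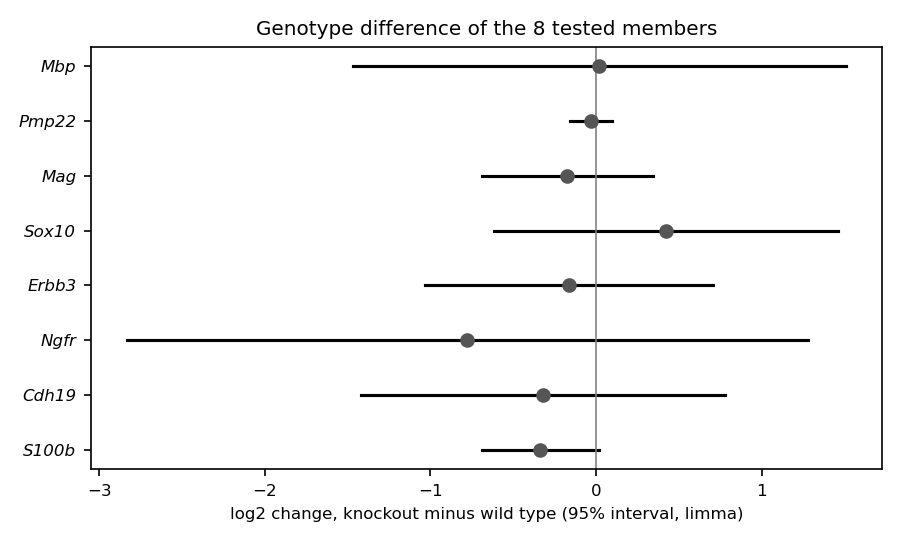
Change of the 8 genes in log2 units, knockout minus wild type (x axis), as points with 95% intervals from limma. All 8 intervals include 0; that of Pmp22 is the narrowest and that of Ngfr, −2.83 to 1.28, the widest.

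Of the 8 members, 6 correlated with at least 1 other over the arrays, and S100b and Pmp22 with none. The highest array was wild type replicate 3 for 8 of 8 members, and for 16.3% of all tested genes. Knockout replicate 2 or wild type replicate 5 was the lowest array for 6 of 8, and for 22.2% of all tested genes. Correlations were computed over the 9 arrays for the 28 pairs of members and for Sox10 with 8 genes that mark other cell types, with exact two-sided permutation tests adjusted over these 36 relations. Of the member pairs 12 passed, with Pearson's r of 0.755 to 0.942, all among Mbp, Mag, Sox10, Ngfr, Erbb3 and Cdh19. The share of passing pairs among all tested genes was not computed, so 12 of 28 has no background to be read against. None of the 7 pairs of S100b (r of 0.239 to 0.59) and none of the 7 pairs of Pmp22 passed. The direction for S100b rests on wild type replicate 3: without it all 7 of its r were negative, from −0.489 to −0.126. Over the 9 arrays the rho of S100b ran from −0.167 with Sox10 to 0.2 with Erbb3.

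Sox10 and Mbp had r = 0.924 and Spearman's rho = 0.95 (exact permutation p 0.000256 and 0.000353, adjusted 0.00308 and 0.00635), and r was 0.966 without wild type replicate 3 and knockout replicate 2, the arrays farthest from the median of Mbp. Erbb3 and Cdh19 had r = 0.942 and rho = 0.967 (exact permutation p 2.76e-05 and 0.000165, adjusted 0.000992 and 0.00595), and r = 0.912 without wild type replicate 3 and knockout replicate 1. Mbp and Cdh19 had r = 0.94 and rho = 0.9 (exact permutation p 0.00016 and 0.00203, adjusted 0.00288 and 0.0146), and r = 0.871 without wild type replicate 3 and knockout replicate 2. By contrast Mag and Cdh19 had r = 0.794 and rho = 0.8 (exact permutation p 0.00997 and 0.0138, adjusted 0.0399 and 0.0415), and only 0.351 without those arrays, so this relation rests on them.

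How many pairs pass depends on wild type replicate 3. Without it, only Erbb3 with Cdh19 kept an adjusted p under 0.05 among the 28 (r = 0.905, exact permutation p 0.000471, adjusted 0.017, 8 arrays). The 12 pairs then had r of 0.593 to 0.919, and 8 of them an unadjusted exact permutation p under 0.05. Without the 2 arrays farthest from the median, 6 of the 12 had an unadjusted exact permutation p under 0.05 over 7 arrays, with r of 0.351 to 0.966. With the genotype means subtracted, 13 pairs passed; each genotype has fewer than 6 arrays, so none was computed within one.

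**Figure D3:**
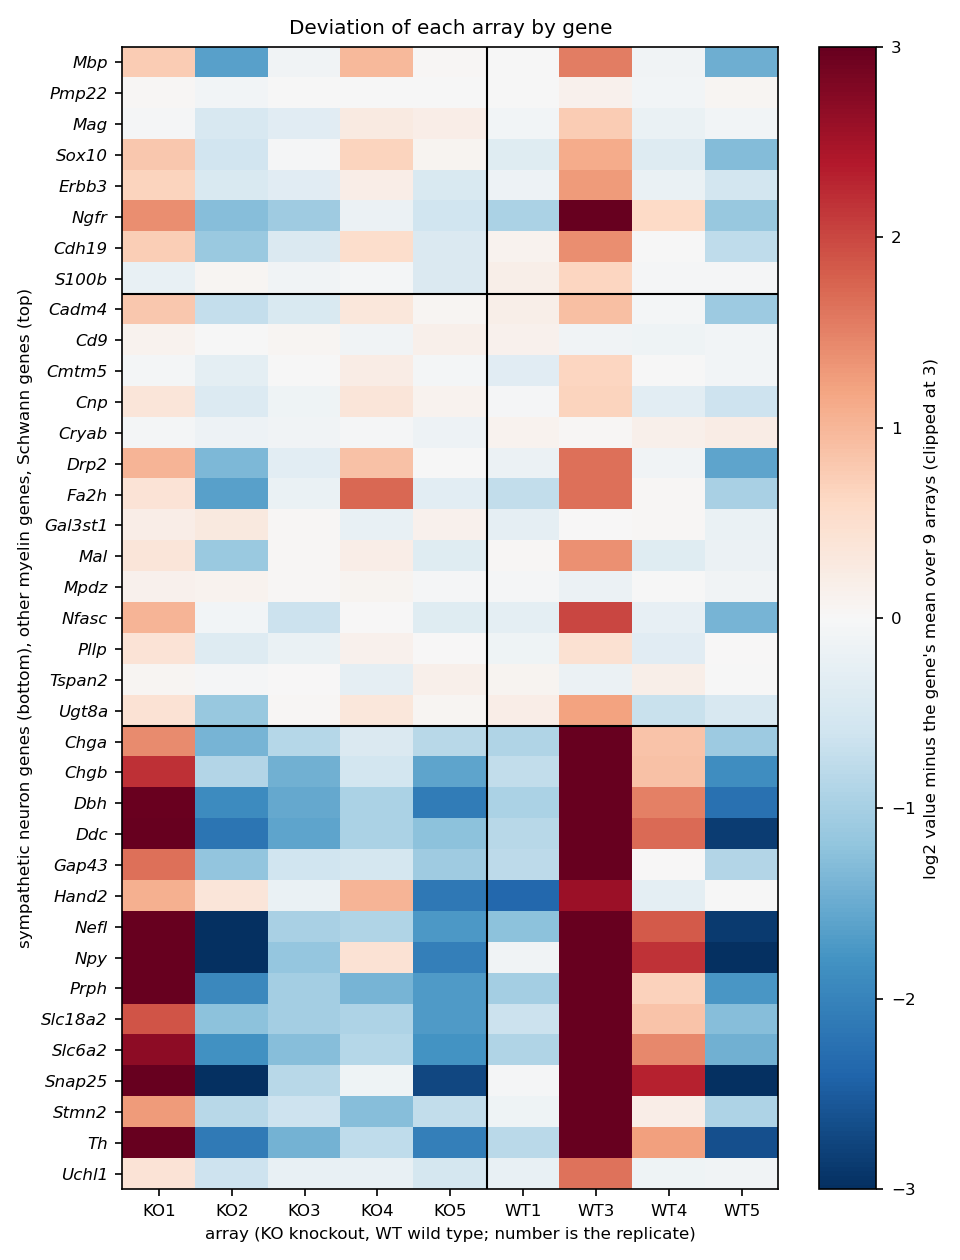
Each cell is an array's log2 value minus the gene's mean over 9 arrays (colour, clipped at 3), for the 8 members (top), 14 other myelin genes (middle) and 15 sympathetic neuron genes (bottom); knockout arrays are left of the line, wild type arrays right. The highest array is wild type replicate 3 for 8 of 8 members, 8 of 14 other myelin genes and 15 of 15 neuronal genes; knockout replicate 4 is high for Mbp, Sox10 and Cdh19 but not for most neuronal genes.

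Sox10 was also set against a marker of sympathetic neurons. Sox10 and Dbh, the noradrenaline-making enzyme of sympathetic neurons, had r = 0.698 and rho = 0.678 (exact permutation p 0.0363 and 0.0515, adjusted 0.0816 and 0.124), and r = 0.42 without wild type replicates 3 and 5. With the genotype means subtracted it passed, at r = 0.872 (exact permutation, adjusted p 0.0085), and without wild type replicate 3 it did not (r = 0.521, exact permutation, adjusted p 0.439). Dbh had 9.31, 4.46, 4.81, 5.40 and 4.26 on knockout replicates 1 to 5, and 5.40, 11.57, 7.86 and 4.11 on wild type replicates 1, 3, 4 and 5. On knockout replicate 4, Mbp and Sox10 were among the 3 highest arrays while Dbh was at 5.40. On wild type replicate 4, Dbh was the third highest at 7.86 while Mbp and Sox10 ranked 7 of 9. The other members were mixed on that array: Ngfr ranked 3, S100b 4, Erbb3 and Cdh19 5, Mag 7 and Pmp22 9. The part that nerve cell bodies or axons in the sample play in the members' values was not tested.

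The remaining 7 relations of Sox10 were not past the adjusted threshold. They had r of −0.095 with Adipoq (adipocytes), −0.188 with Ucp1 (brown fat), −0.0714 with Acta1 (skeletal muscle), −0.0163 with Myh11 (smooth muscle), −0.662 with Pecam1 (endothelium), −0.162 with Adgre1 (macrophages) and −0.391 with Pdgfra (fibroblasts). Spearman's coefficient ran from −0.517 to 0.283, and the adjusted exact permutation p of r from 0.1 for Pecam1 to 0.967 for Myh11. Without wild type replicate 3, r was 0.776 with Myh11 and −0.705 with Pecam1 (unadjusted exact permutation p 0.0227 and 0.0474, adjusted 0.102 and 0.171).

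**Figure D4:**
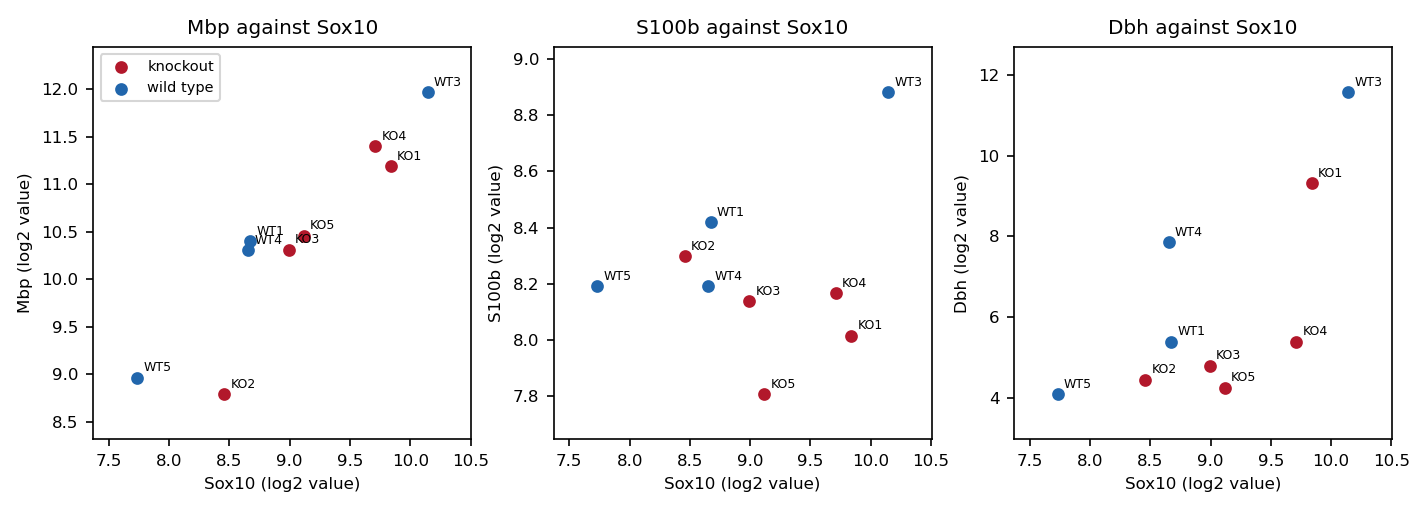
Log2 value of Sox10 (x axis) against Mbp, S100b and Dbh (y axes), 1 point per array, knockout red and wild type blue. Arrays with more Sox10 have more Mbp (r = 0.924), while for S100b r is 0.239 with wild type replicate 3 and −0.428 without it, and Dbh is high mainly on wild type replicate 3 and knockout replicate 1.

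The genes whose profiles over the 9 arrays were most like those of Sox10 and Mbp included genes known from glia. They were chosen for their r, so no p is given. For Sox10 they were Cnp, a myelin enzyme (r = 0.972), Ddn (0.968), the axonal potassium channel gene Kcna2 (0.965), Gm2115 (0.963) and Bcas1, a gene of early myelinating oligodendrocytes (0.96), with rho of 0.929 to 0.979. For Mbp they were Drp2, a partner of periaxin in the outer Schwann cell membrane (0.986), Zfp536 (0.978), Ncmap, a protein of non-compact myelin (0.967), the glial progenitor factor Sox2 (0.958) and the potassium channel gene Kcna1 (0.952), with rho of 0.817 to 0.933. Drp2 had 8.89, 6.52, 7.55, 8.76 and 7.87 in the knockout and 7.70, 9.53, 7.78 and 6.29 in wild type, the same high and low arrays as Mbp.

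Of the other genes of the myelin sheath none passed the adjusted threshold. Of 20 listed, 14 were tested, with 7 higher and 7 lower, a median of −0.0024, 0 past the adjusted threshold and 2 at an unadjusted p under 0.05 (limma), against 19.9% of all tested genes. Without wild type replicate 3, 11 were higher and 3 lower (median 0.19). For 8 of the 14 the highest array was wild type replicate 3. The smallest p-values belonged to Cryab, a small heat shock protein of lens, muscle and glia, at −0.22 (SE 0.06, adjusted p 0.13), Mpdz at 0.14 (SE 0.06, adjusted p 0.23) and Gal3st1, which makes the myelin lipid sulfatide, at 0.19 (SE 0.11, adjusted p 0.37, limma). Cryab had 12.48, 12.39, 12.44, 12.50 and 12.39 in the knockout and 12.64, 12.57, 12.69 and 12.75 in wild type, so its groups do not overlap, as for 6.76% of all tested genes. Cd9, a tetraspanin of many cell types and with Cryab the highest mean of the list, stood at 0.091 (SE 0.08). Cldn19, Gjb1 and Gjc3 did not pass the filter, and the rest of the list was not analysed here.

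Factors of the Schwann cell programme, other glial markers and signals between nerve and glia also gave 0 called genes, and 3 at an unadjusted p under 0.05 in each of the 3 lists (limma), against 19.9% of all tested genes. The groups did not overlap for Nfatc4 and Sort1, both higher, which is again 1 gene in each of those lists against 6.76% of all. Of 16 programme genes 15 were tested, 8 higher and 7 lower (median 0.00062), with the smallest p for Nfatc4, a calcineurin-dependent factor, at 0.38 (SE 0.11, adjusted p 0.14), Nab2, a corepressor of EGR factors, at 0.22 (SE 0.08, adjusted p 0.19) and the hedgehog ligand gene Shh at 0.38 (SE 0.16, adjusted p 0.23). Of 18 other glial markers 14 were tested, 5 higher and 9 lower (median −0.048). These counts turned on wild type replicate 3, since without it 11 were higher and 3 lower (median 0.11). Leaving out knockout replicate 1 as well gave 7 each way. Among these markers the smallest p was for Art3 at −0.32 (SE 0.11, adjusted p 0.17), Erbb2, the partner kinase of ERBB3, at 0.27 (SE 0.09, adjusted p 0.18) and Mia at 0.54 (SE 0.21, adjusted p 0.21, limma). Of 19 genes of neuregulin and neurotrophin signalling 13 were tested, 9 higher and 4 lower (median 0.091), with the smallest p for the neurotrophin receptor gene Ntrk3 at 0.28 (SE 0.08, adjusted p 0.15), Erbb2, and the sorting receptor gene Sort1 at 0.13 (SE 0.05, adjusted p 0.21, all limma). The genes with the highest means, Zeb2 and Tead1, Ncam1 and Ptprz1, and Adam10 and Ntrk3, had changes of 0.029, −0.082, 0.0072, 0.10, −0.082 and 0.28. Nrg1, the axonal ligand of ERBB3, did not pass the filter.

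Sympathetic neuron genes were lower in 14 of 15 tested, with a median of −1.31, but 0 passed. At an unadjusted p under 0.05 there were also 0 (limma), against 19.9% of all tested genes. The counts of higher and lower genes depended on the arrays kept. Without wild type replicate 3, 7 were higher and 8 lower, with a median of −0.046. Without both that array and knockout replicate 1, 1 was higher and 14 lower, with a median of −0.82. The smallest p-values belonged to Uchl1 at −0.53 (SE 0.39, adjusted p 0.47), Stmn2 at −0.98 (SE 0.80, adjusted p 0.52) and Slc18a2 at −1.35 (SE 1.12, adjusted p 0.53). For all 15 the highest array was wild type replicate 3. Slc6a2, the noradrenaline transporter gene, stood at −1.38 (SE 1.27) and had 11.01, 6.51, 7.05, 7.46 and 6.52 in the knockout and 7.43, 12.28, 9.77 and 6.88 in wild type.

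Oligodendrocytes and melanocytes also use SOX10. Of 8 oligodendrocyte markers, Ermn, Mog, Nkx2-2 and Olig2 did not pass the filter, and the mean of the 4 tested was 4.39 to 4.98 in the knockout and 4.52 to 5.46 in wild type (1 higher, 3 lower, median −0.15). Their direction turned without wild type replicate 3, to 3 higher and 1 lower (median 0.080). It stayed so without knockout replicate 1 as well (median 0.084). Of 7 melanocyte markers, Tyr and Tyrp1 did not pass, and the 5 tested, which include the widely expressed Mitf and Kit, averaged 6.72 to 7.09 and 6.90 to 7.21 (1 higher, 4 lower, median −0.11). The other cell types all had tested markers, though Myh1 and Myh4 of skeletal muscle did not pass the filter. The tested markers averaged 9.97 to 11.03 in the knockout and 10.71 to 11.23 in wild type for adipocytes (0 higher, 7 lower), 9.98 to 10.76 and 10.54 to 11.31 for brown adipocytes (0 higher, 7 lower), and 4.53 to 9.68 and 4.61 to 5.04 for skeletal muscle (5 higher, 0 lower), where knockout replicate 3 alone was high. They averaged 13.04 to 13.10 and 12.84 to 13.06 for smooth muscle (5 higher, 0 lower), 8.81 to 9.10 and 8.99 to 9.44 for endothelium (0 higher, 5 lower), 8.85 to 9.25 and 8.77 to 9.88 for macrophages (0 higher, 5 lower) and 11.75 to 12.12 and 11.71 to 12.33 for fibroblasts (1 higher, 4 lower). In these lists 0 genes passed the adjusted threshold in limma, against 0.0559% of all tested genes. At an unadjusted p under 0.05 (limma) there were 1 melanocyte, 2 adipocyte, 1 brown adipocyte, 2 smooth muscle, 2 endothelial and 1 macrophage gene. The share of all tested genes at that level was 19.9%. The part of these cell types in the values of S100b and Pmp22 was not tested.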

How the data were processed

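Total RNA of mouse aorta was measured on Affymetrix arrays. The authors deposited log2 values. Per the submitters' processing notes they come from GCRMA, which gives 1 background-corrected, normalized value per probe set; the scale is read from the values, and version, batch and scan are not given in the sources used here. Of 10 samples, 9 have values (5 knockout, 4 wild type). They are called biological replicates, and their number limits the precision.

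Of 45101 probe sets, those with 1 gene symbol and a log2 value over 4 on at least 4 arrays were tested (26504); a gene was represented by its brightest probe set (14321 genes). limma 3.58.1 in R 4.3.3 compared knockout minus wild type with no covariate and Benjamini-Hochberg adjustment at 0.05; it was tested on simulated data. SE and 95% intervals are from the moderated fit. Correlations used exact permutation (numpy 2.4.6, Python 3.11.15). Alternatives were other normalization, centring, filters, limma options, array weights, the mean over probe sets, covariates, the replicate number as a block, and each array left out.

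The members and lists were chosen with earlier results of these data known. Named besides the members and Ptgds were the 3 genes with the smallest p and the 2 with the highest mean of each of 5 nerve lists (other myelin, Schwann programme, other glia, signals, sympathetic neuron), 1 marker gene for each of 8 other cell types, and the 5 genes most like Sox10 and Mbp. The other lists are oligodendrocyte, melanocyte, adipocyte, brown adipocyte, skeletal muscle, smooth muscle, endothelial, macrophage and fibroblast markers.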

Additional observations from a re-analysis of the deposited data

Results flagged for a closer look

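Within each genotype, values that lie apart from the other arrays were looked for with Dixon's test in 126 groups of 4 or 5 arrays. It marked 10, where chance marks about 5% of groups, and the groups share arrays. Among the members it marked Mag (probe set 1460219_at) on wild type replicate 3, at 4.99. On the same array Uchl1 lay at 11.59. On knockout replicate 1 the mean of the sympathetic neuron markers lay apart at 9.45, as did Stmn2 at 8.44, Slc18a2 at 8.77, Slc6a2 at 11.01 and Dbh at 9.31. On knockout replicate 3 the mean of the skeletal muscle markers was 9.68 and Acta1 was 10.60. Adam10 was low on knockout replicate 2, at 11.46.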

How the results depend on the processing

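The count of member genes and of member probe sets past the threshold was 0 under each alternative run (lowest adjusted p of a member gene 0.22). Ptgds kept its call in all but 1: with the replicate block its change was −5.30 with an adjusted p of 0.126, and 0 of 14321 genes passed there, against 8. Without wild type replicate 1, 1071 genes passed, 0 of them members; array weights gave 73, trend and robust options 33, the floor of 6 19 and the adipocyte covariate 2. The pairs of members past the threshold numbered 1 to 17 when 1 array was left out, 1 without wild type replicate 3. The median change of the members ran from −0.40 (without wild type replicate 5) to 0.12 (without wild type replicate 3), was −0.069 with the replicate block, 0.047 with the sympathetic covariate and 0.013 without wild type replicate 3 and knockout replicate 1 together, an alternative added after seeing the data. Same-numbered arrays correlated at −0.361, −0.151, 0.06 and 0.214 in their deviations from the group means, so the replicate numbers were not taken to pair the animals. Several changes turned sign; the cause was not tested. Mbp stood at −0.13 with the adipocyte covariate, −0.063 as the mean of its probe sets, and between −0.46 and 0.54 with 1 array left out. The ranges with 1 array left out were −0.064 to 0.0033 for Pmp22, −0.63 to 0.087 for Cdh19, −0.38 to 0.23 for Erbb3, −1.30 to 0.15 for Ngfr and −0.27 to 0.047 for Mag, each highest without wild type replicate 3. Cdh19 stood at 0.067, Erbb3 at 0.16 and Ngfr at 0.027 with the sympathetic covariate, and Erbb3 at 0.088 with array weights. Without that array and knockout replicate 1 the changes were 0.042 for Erbb3 and 0.034 for Mag.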

Other observations

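Ptgds itself had 9.11, 10.31, 8.79 and 8.68 on wild type replicates 1, 3, 4 and 5, with the highest value on wild type replicate 3. Its other probe set had a change of −1.80 (SE 0.34, adjusted p 0.089 over all tested probe sets, limma).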
